A study of Mus musculus with 2 samples.

Results

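The methionine cycle supplies hepatocytes with S-adenosylmethionine, the methyl donor of most cellular methylation reactions. Its genes were described here by 9 members, namely Mat1a, Mat2a, Mat2b, Ahcy, Gnmt, Bhmt, Cbs, Cth and Pemt, chosen by symbol. Each symbol matched 1 Ensembl gene in GENCODE mouse release M21, so the members were 9 of the 20505 genes listed in each table. RNA was sequenced from cultured primary hepatocytes of C57BL/6 mice, isolated by collagenase perfusion of the liver and kept in DMEM with 5% FBS. Overnight infection was with adenovirus for β-Gal, a bacterial enzyme that served as control, or with adenovirus for HuR, the product of Elavl1, a protein that binds mRNA. Each group was 1 library, of a cell preparation whose number of mice is not given in the sources used here, so no difference below has a replicate check and no test between conditions was possible.

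As background, methionine adenosyltransferase joins methionine and ATP to S-adenosylmethionine, a methyltransferase spends the methyl group, and the resulting S-adenosylhomocysteine is split to homocysteine. Homocysteine is either methylated back to methionine or carried through transsulfuration to cysteine, the precursor of glutathione. Adult liver relies on the isoenzyme of Mat1a, whereas Mat2a is the form of other tissues, of fetal liver and of growing or dedifferentiating hepatocytes, and its mRNA is a reported target of HuR. The comparison asks how far the levels of these transcripts differ when HuR is overexpressed.

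Values are FPKM, reads scaled by transcript length and by library total, as the authors deposited them. They moved in steps of whole reads, from which library totals of 18357017 (β-Gal) and 17671387 (HuR) were recovered, and intervals in parentheses are 95% counting intervals on the recovered reads of each gene. These intervals hold counting error alone and leave out variation between cultures and library preparations. Log2 fold changes are log2((HuR + 1)/(β-Gal + 1)), taken from FPKM, where the added 1 makes the changes of weakly expressed genes look smaller, and a gene was called past 2-fold by this measure. Ratios called a fold are ratios of FPKM without the added 1. Elavl1 was at 9.67 FPKM with the β-Gal virus and at 4480 FPKM with the HuR virus, 463-fold higher (426 to 505). The median log2 fold change of the 12905 genes that reached 1 FPKM in either library was -0.17, and values less that median are given where they turn a direction.

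All 8 hepatocyte markers were present in both libraries, with a summed level of 28509 FPKM in β-Gal against 31353 FPKM in HuR, most of it albumin (Alb, 25353 and 27642 FPKM). Of the 8, 0 were at least 2-fold higher and 1 was lower, the urea cycle enzyme Cps1, at 8.41 and 3.17 FPKM, while the liver transcription factor Hnf4a stood at 92.0 and 73.5 FPKM and Cyp2e1 at 219 and 176 FPKM. Markers of other liver cells were far lower and moved in several directions. The summed level of 10 Kupffer cell markers stood at 65.2 and 142 FPKM, that of 7 endothelial markers at 20.4 and 39.2 FPKM, that of 6 cholangiocyte markers at 70.0 and 84.2 FPKM, and that of 8 stellate cell markers at 12.9 and 1.69 FPKM, in β-Gal and HuR respectively. Most of the cholangiocyte sum was Spp1, at 50.8 and 71.9 FPKM, and the median log2 fold change of that list was -0.51. At least 2-fold higher in HuR were 4 of 7 compared Kupffer, 2 of 5 endothelial and 1 of 6 cholangiocyte markers. At least 2-fold lower were 5 of 5 stellate and 2 of 6 cholangiocyte markers. Of all compared genes, 5.35% were called higher and 8.31% lower. The stellate cell markers Lrat and Pdgfrb and the endothelial marker Clec4g were listed at 0 in the HuR library. In β-Gal they were near the floor as well, at 0.0102, 0.0704 and 0.0468 FPKM. The listing holds 0 genes at 0 in β-Gal and 2233 in HuR, so a value of 0 could appear in the HuR library only. The part of these cells in the results below was not tested, and fewer cells of a type cannot be told apart from less RNA per cell.

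Mat2a differs from the other members in the 3' UTR of its mRNA, the stretch after the stop codon in which HuR and other RNA-binding proteins are known to act. Its longest annotated 3' UTR, of 2178 bases, holds the letters TACAGAGAA 5 times, the sequence at which the methyltransferase METTL16 is known to modify hairpins of this mRNA when S-adenosylmethionine is plentiful. Of 21021 protein-coding genes with an annotated 3' UTR, 503 (2.39%) hold this sequence at all, and Mat2a is the 1 gene with 5 matches, the most in any gene. Among genes with a 3' UTR of like length (80 to 125% of that of Mat2a), 3.09% hold it. The 5 matches are shown in capitals with 10 bases on either side, 5′ to 3′ on the mRNA strand, from the M21 transcript sequences on GRCm38, because no other member has them.
Mat2a match 1 (chr6:72434235-72434263, minus strand): tggcgtaggtTACAGAGAAgccttcaagc
Mat2a match 2 (chr6:72433451-72433479, minus strand): ccttgtgataTACAGAGAAgtcacagggc
Mat2a match 3 (chr6:72433272-72433300, minus strand): ctggtgtagcTACAGAGAAaccagcttcc
Mat2a match 4 (chr6:72433157-72433185, minus strand): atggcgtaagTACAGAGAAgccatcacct
Mat2a match 5 (chr6:72432938-72432966, minus strand): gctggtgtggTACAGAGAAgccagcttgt

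The pentamer ATTTA, the core of AU-rich elements, was searched on the mRNA strand as well, since HuR is known to bind AU-rich and U-rich RNA. It occurs in the longest 3' UTR of 6 of the 9 members and of 65.2% of all 21021 genes, so the members' share is near the background. Counted in the transcript with the longest coding sequence instead, 5 of 9 members hold it, since Cbs has it only in a longer form. Mat2a holds 5 matches in its longest 3' UTR, a number that 4548 genes reach or exceed. In its transcript with the longest coding sequence Mat2a holds 3, in a 3' UTR of 1494 bases. Mat1a holds 1 in 1807 bases and Cth holds 1 in 571 bases. TTTTT, searched on the same strand and counted with overlaps, occurs in 6 of the 9 members and in 72.4% of all genes. Mat2a has 18 matches to TTTTT, a number that 3276 genes reach or exceed, and 96.3% of genes of like 3' UTR length hold it. With the longest coding sequence instead, the Mat2a transcript has 16. Mat1a has 0, although 94.6% of genes with a 3' UTR of like length to that of Mat1a hold it. Cth and Mat2b have the 3' UTRs richest in T among the members, at 38.4% and 38.0%, above 97.3% and 97.0% of genes of like length. That of Mat2a is 30.9% T, above 60.2% of genes of like length. Matches are letters in an annotated window, and these data hold no measure of binding. The single matches of Mat1a and Cth are shown beside a pair from Mat2a, with ATTTA in capitals, since these 3 genes carry the results that follow.
Mat1a ATTTA (chr14:41123347-41123371, plus strand): atggctacttATTTAaggcctgggt
Cth ATTTA (chr3:157894463-157894487, minus strand): caatgttacaATTTAgtattgatgt
Mat2a ATTTA match 3 (chr6:72433823-72433847, minus strand): cttgagctctATTTAttgaatgtga
Mat2a ATTTA match 5 (chr6:72433190-72433214, minus strand): ctaattgcttATTTAttgtattctg

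Across the 9 members the libraries differed in both directions, and 1 member was at least 2-fold apart. Cth was lower in the HuR library by that rule, and 0 members were at least 2-fold higher. Of the 12905 compared genes, 8.31% were called lower and 5.35% called higher, so a count of 1 in 9 (11.1%) is near the background. With the trends of GC content and length removed the count was the same, beside 6.48% of genes lower and 4.26% higher. At 1.5-fold, Cth and Mat1a were lower and 0 members higher, beside 23.4% and 12.0% of all compared genes. The median log2 fold change of the members was -0.26, beside -0.17 over all compared genes. Counting intervals lay wholly above equality for 3 members, wholly below it for 5 and held it for 1. The share of all compared genes with such intervals is not given here, so these counts cannot be read as particular to the members. Summed over the members, the reads made up 0.120% of the β-Gal library and 0.121% of the HuR library, a ratio of 1.00 (0.983 to 1.02). The summed share thus differed by less than counting error could show, while the share of single members moved in both directions. Most of the summed reads (22103 in β-Gal, 21315 in HuR) were of Ahcy (7967 and 9199) and Gnmt (4976 and 5859). Both were higher in HuR as deposited, so the sum says little of the other members.

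**Figure D1:**
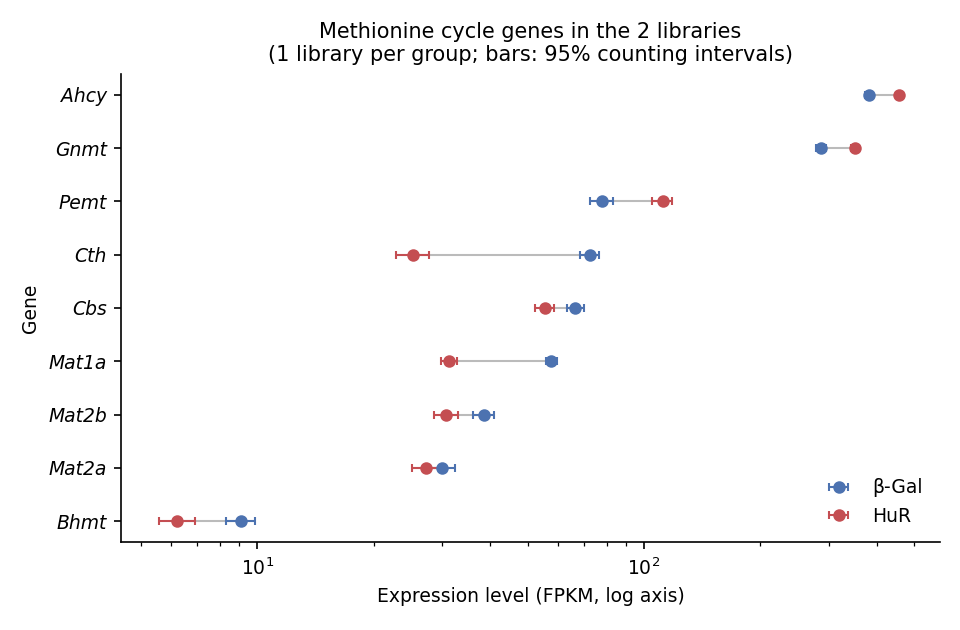
Expression level of each member in FPKM on a log axis, in the β-Gal library (blue) and the HuR library (red), with 95% counting intervals as bars and 1 library per group. As deposited, Cth and Mat1a lie farther left in the HuR library, at 25.3 and 31.3 FPKM, Ahcy, Gnmt and Pemt lie farther right (at -0.13 for Gnmt, and near 0 for Ahcy and Pemt, on the log2 scale once GC content and length trends are removed), and the intervals of Mat2a overlap.

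Mat1a (ENSMUSG00000037798) encodes the catalytic subunit of the adult liver isoenzymes of methionine adenosyltransferase and maps to chromosome 14, 41105035 to 41124412, plus strand, in GRCm38. It stood at 57.6 FPKM (3392 reads) in the β-Gal library, compared with 31.3 FPKM (1774 reads) in the HuR library. The HuR library was the lower, 1.84-fold (1.74 to 1.95), with a log2 fold change of -0.86 that fell short of the 2-fold rule. Of all compared genes, 12.3% had a lower log2 fold change than Mat1a. The difference kept its direction less the median of all genes (-0.69) and with the trends of GC content and length removed (-0.69).

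Mat2a (ENSMUSG00000053907) encodes the catalytic subunit of the isoenzyme outside adult liver and maps to chromosome 6, 72432799 to 72439558, minus strand. It stood at 30.1 FPKM (658 reads) in β-Gal against 27.3 FPKM (575 reads) in HuR. The ratio of HuR to β-Gal was 0.908 (0.810 to 1.02), the only interval among the members that held 1, and the log2 fold change of -0.13 became 0.03 less the median of all genes. Mat2a held rank 3874 by level in both libraries. The antisense gene Particl shares 508 exon bases with Mat2a and was listed at 0.0349 FPKM in β-Gal and at 0 in HuR, and reads of the pair cannot be told apart without a strand setting.

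Mat2b (ENSMUSG00000042032) encodes the regulatory subunit that binds the Mat2a product, and maps to chromosome 11, 40679314 to 40695203, minus strand. It stood at 38.5 FPKM in β-Gal against 30.8 FPKM in HuR, a ratio of 0.801 (0.727 to 0.882). The ratio of Mat2b to Mat2a levels was 1.28 in β-Gal and 1.13 in HuR, and the ratio of these ratios, 0.882 (0.759 to 1.03), had an interval that held 1. A shift in the proportion of these transcripts was thus not detectable at this depth within that interval, and the proportion of the proteins was not measured. With the length of the transcript with the longest coding sequence, the ratios were 2.10 in β-Gal and 1.85 in HuR.

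The level of Mat2a relative to Mat1a, a ratio within a library that does not depend on the library total, was 0.523 (0.480 to 0.569) in β-Gal and 0.874 (0.794 to 0.960) in HuR. It was 1.67-fold higher (1.47 to 1.90) in the HuR library. The Mat1a level was lower there while that of Mat2a was close to its control value, so the higher ratio came with fewer Mat1a reads and not with more Mat2a reads. The size of the ratio in either library rests on the transcript lengths behind the FPKM values. The Mat2a length of 1190 bases is a mean over 10 annotated transcripts, beside 2804 bases for the transcript with the longest coding sequence. With that transcript's length for each gene, an alternative chosen after the values were seen, the ratio was 0.222 in β-Gal and 0.371 in HuR. A change of length scales both libraries alike, so it cannot move the fold between them and is no check of it. With the trends of GC content and length removed, that fold was 1.46.

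**Figure D2:**
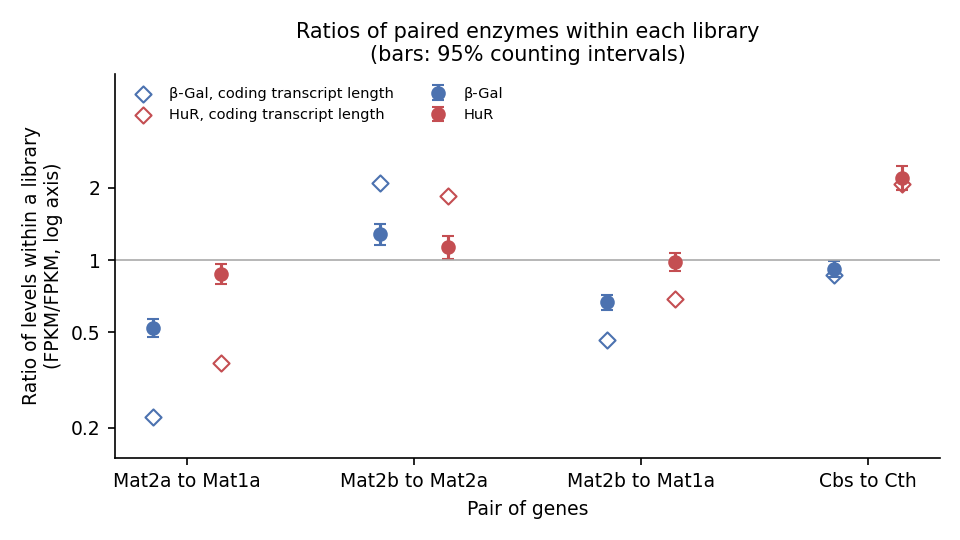
Ratio of the FPKM levels of 2 genes within a library, on a log axis, for the β-Gal library (blue) and the HuR library (red). Filled points with 95% counting intervals use the deposited FPKM, and open diamonds use the length of the transcript with the longest coding sequence. As deposited, the ratios of Mat2a to Mat1a, Mat2b to Mat1a and Cbs to Cth are higher in the HuR library (1.67-fold, 1.47-fold and 2.39-fold). The intervals of Mat2b to Mat2a overlap, and no ratio drawn has the GC content and length trends removed.

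Gnmt, Pemt and Ahcy spend S-adenosylmethionine or clear its product, and all 3 had counting intervals above equality as deposited. Once GC content and length trends were removed, Gnmt was at -0.13 on the log2 scale, with Ahcy (0.00) and Pemt (0.03) near 0. Against 0, the direction thus did not hold for Gnmt and Ahcy, and hardly for Pemt. The correction kept the median of all genes at -0.17, and all 3 stayed above that median. Gnmt (ENSMUSG00000002769) encodes glycine N-methyltransferase, the abundant liver enzyme that uses up excess S-adenosylmethionine, on chromosome 17 at 46725664 to 46729168 on the minus strand. It stood at 287 FPKM in β-Gal against 351 FPKM in HuR, 1.22-fold higher (1.18 to 1.27). Pemt (ENSMUSG00000000301) encodes the enzyme that methylates phosphatidylethanolamine to phosphatidylcholine, on chromosome 11 at 59970614 to 60046489 on the minus strand. It went from 77.7 FPKM (857 reads) in β-Gal to 112 FPKM (1186 reads) in HuR, 1.44-fold higher (1.32 to 1.57), which is the highest ratio among the members. Ahcy (ENSMUSG00000027597) encodes S-adenosylhomocysteine hydrolase, which removes the inhibitor that methyltransferases leave behind, on chromosome 2 at 155059310 to 155074497 on the minus strand. By deposited FPKM it was the member with the highest level in both libraries, at 381 FPKM in β-Gal against 457 FPKM in HuR, 1.20-fold higher (1.16 to 1.24).

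The transcripts of Gnmt, Pemt and Ahcy have a GC content of 56.8, 55.2 and 56.1%, while the 5 members with transcripts under 50% GC (Mat1a, Mat2a, Mat2b, Bhmt and Cth, 43.2 to 49.8%) were all lower in the HuR library as deposited, although less the median of all genes Mat2a was at 0.03. With the trends of GC content and transcript length over all compared genes removed, the log2 fold change of Gnmt went from 0.29 to -0.13, that of Pemt from 0.52 to 0.03 and that of Ahcy from 0.26 to 0.00. Cbs, with a GC content of 55.4%, was lower with and without that correction (-0.36 and -0.26). Both trends were removed together, and the part of either in these values was not tested.

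Bhmt (ENSMUSG00000074768) encodes the enzyme that remethylates homocysteine with betaine, and maps to chromosome 13, 93616675 to 93637961, minus strand. Bhmt had the lowest level of the members, at 9.06 FPKM (519 reads) in β-Gal against 6.20 FPKM (342 reads) in HuR. The HuR library was 1.46-fold lower (1.27 to 1.68), with a log2 fold change of -0.48 that shrank to -0.14, near the median of all genes, with the GC content and length trends removed. The antisense gene Gm15622, which was not analysed here, shares 187 exon bases with Bhmt. In adult liver Bhmt is known as an abundant transcript, and here it held rank 7452 of the 20505 genes in β-Gal and rank 7922 in HuR.

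Both enzymes of transsulfuration were lower in the HuR library, but to unequal degrees. Cbs (ENSMUSG00000024039), cystathionine beta-synthase, joins homocysteine and serine and maps to chromosome 17, 31608894 to 31637238, minus strand. It stood at 66.5 FPKM (1516 reads) in β-Gal against 55.5 FPKM (1217 reads) in HuR, 1.20-fold lower (1.11 to 1.29), and at -0.09 on the log2 scale less the median of all genes. Cth (ENSMUSG00000028179), cystathionine gamma-lyase, releases cysteine from the product of Cbs and maps to chromosome 3, 157894248 to 157925077, minus strand. It stood at 72.5 FPKM (1257 reads) in β-Gal against 25.3 FPKM (422 reads) in HuR.

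Cth was 2.87-fold lower in the HuR library (2.57 to 3.21), with a counting interval wholly beyond 2-fold. Its log2 fold change was -1.48, and 1.95% of all compared genes had a lower one. It went from rank 1749 to rank 4073 by level. The ratio of Cbs to Cth was 0.918 in β-Gal and 2.20 in HuR, 2.39-fold higher (2.09 to 2.74) as deposited. With the trends of GC content and length removed, the log2 fold changes of Cbs and Cth were -0.36 and -1.38. Their gap was then narrower than as deposited (-0.26 and -1.48). Gm43314, an unclassified transcript model inside the Cth gene on the same strand that shares 0 exon bases with it, stood at 0.562 FPKM in β-Gal against 0.152 FPKM in HuR.

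**Figure D3:**
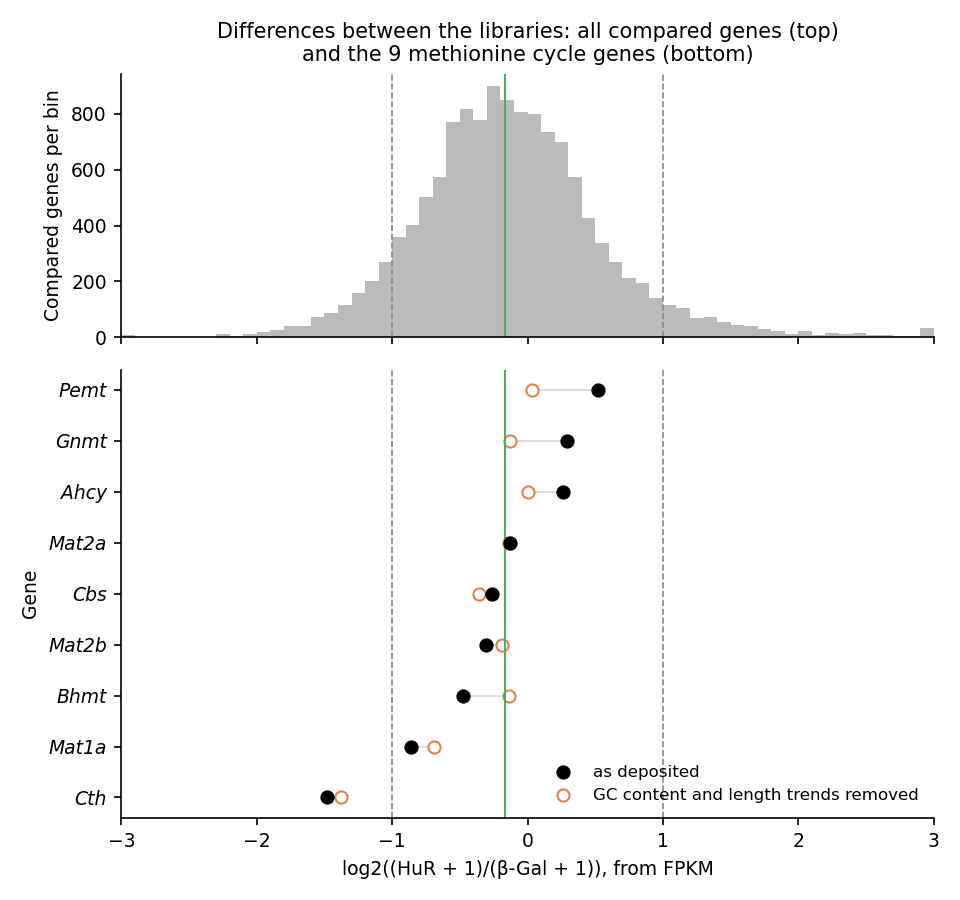
Top, number of compared genes per bin of log2((HuR + 1)/(β-Gal + 1)), with genes beyond the axis gathered in the end bins. Bottom, the same measure for each member as deposited (black) and with the trends of GC content and length removed (open orange). The green line is the median of all compared genes (-0.17) and the dashed lines mark 2-fold. Cth lies beyond 2-fold by both measures, Mat1a keeps its place below the median, and Pemt, Gnmt, Ahcy and Bhmt move toward the median once the trends are removed.

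By level, Ahcy and Gnmt headed the members in both libraries, followed in β-Gal by Pemt, Cth, Cbs, Mat1a, Mat2b, Mat2a and Bhmt. The counting intervals of Pemt and Cth overlapped in β-Gal, as did those of Cth and Cbs. In HuR the order after Pemt was Cbs, Mat1a, Mat2b, Mat2a, Cth and Bhmt, and each neighbouring pair from Mat1a to Cth overlapped. Transcript length decided part of this order. With the length of the transcript with the longest coding sequence, Gnmt (262 and 320 FPKM in β-Gal and HuR) stood above Ahcy (171 and 205 FPKM), and Mat1a stood at place 3 in β-Gal and place 4 in HuR.

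The neighbouring pathways were read from 8 gene lists of 110 symbols besides Elavl1, of which 104 genes were compared. Of these, 10 were at least 2-fold lower (9.62%) and 0 at least 2-fold higher, beside 8.31% and 5.35% of all compared genes, and their median was -0.21. Less the median of all genes, 6 were lower and 0 higher, as Suox, Azin1, Slc19a1 and Hnrnpd then fell short of 2-fold, beside 660 (5.11%) and 960 (7.44%) of all genes. As deposited, 1072 of all compared genes were called lower and 691 higher. The share of lower calls in the lists was thus near the background by both scalings.

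Other genes of the methionine cycle had a median of -0.49, with 0 of 9 compared past 2-fold in either direction, and 7 of the 9 were below the median of all genes. Ahcyl1, a relative of Ahcy without its hydrolase role, stood at 79.1 FPKM in β-Gal against 48.7 FPKM in HuR. Mmadhc, which handles vitamin B12, stood at 67.2 and 77.5 FPKM. Both remaining routes of homocysteine remethylation were named after their values had been seen. Mtr, the vitamin B12-dependent methionine synthase, stood at 3.23 and 1.64 FPKM, and Bhmt2, the neighbour and relative of Bhmt, at 6.07 and 2.64 FPKM. Bhmt2 was 2.30-fold lower by the plain ratio, and its log2 fold change with the added 1 was -0.96. The log2 fold change of Mtr was -0.68, so neither passed the 2-fold rule.

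The choline, betaine and phosphatidylcholine list held 3 genes at least 2-fold lower and 0 higher among 14 compared, with a median of -0.31. Over all compared genes the shares were 8.31% lower and 5.35% higher. Chdh, the mitochondrial choline dehydrogenase that begins betaine synthesis, stood at 17.8 FPKM in β-Gal against 5.19 FPKM in HuR, 3.44-fold lower (3.01 to 3.93). Slc44a1, a choline transporter, was 2.97-fold lower (2.63 to 3.37), at 27.4 and 9.20 FPKM. Cept1, which completes phosphatidylcholine and phosphatidylethanolamine from their activated head groups, was 2.44-fold lower (2.13 to 2.80). These 3 genes stayed beyond 2-fold less the median of all genes and with the GC content and length trends removed. The abundant members Pcyt2 of the ethanolamine branch and Aldh7a1, which oxidizes betaine aldehyde, stood at 198 and 155 FPKM and at 148 and 198 FPKM.

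Downstream of Cth, the list of sulfur amino acid catabolism and glutathione synthesis held 2 genes lower and 0 higher among 12 compared. Beside it stand 8.31% and 5.35% of all compared genes. The median of the list was -0.15. Fmo1, a flavin monooxygenase that makes taurine from hypotaurine, stood at 11.7 and 4.45 FPKM, 2.64-fold lower (2.12 to 3.29). Suox, the sulfite oxidase, stood at 9.0 and 3.66 FPKM, 2.46-fold lower (2.03 to 2.98). Gclc and Gss, which make glutathione, lay within 2-fold. Gclc, the catalytic subunit of the ligase that joins glutamate to cysteine, stood at 311 FPKM in β-Gal against 308 FPKM in HuR, and Gss, the synthetase that then adds glycine, at 212 and 269 FPKM.

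Among methyltransferases that use S-adenosylmethionine, 1 of 23 compared genes was lower, 0 were higher and the median was -0.30. The shares of all compared genes were 8.31% lower and 5.35% higher. Coq3, which methylates coenzyme Q precursors in mitochondria, was 3.20-fold lower (2.60 to 3.97), at 12.9 and 4.04 FPKM. Highest by the mean of both libraries within this list, which leaves out the members, were Ehmt2, a histone H3 methyltransferase, at 118 and 125 FPKM, and Pcmt1, which repairs damaged aspartyl residues, at 53.1 and 85.6 FPKM.

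The folate cycle, which passes methyl groups to Mtr, had a median of -0.03 with 2 of 20 compared genes lower and 0 higher. Background shares were 8.31% lower and 5.35% higher. Aldh1l2, a mitochondrial formyltetrahydrofolate dehydrogenase, was 3.10-fold lower (2.37 to 4.11) from 229 reads in β-Gal and 71 in HuR. Slc19a1, the reduced folate carrier, was 2.15-fold lower (1.93 to 2.40), at 47.0 and 21.9 FPKM. Shmt2, the mitochondrial serine hydroxymethyltransferase, stood at 139 and 134 FPKM and the cytosolic dehydrogenase Aldh1l1 at 114 and 144 FPKM.

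Polyamine synthesis, which consumes S-adenosylmethionine, and methionine salvage had a median of -0.15 with 1 of 15 compared genes lower and 0 higher. Here too the background was 8.31% lower and 5.35% higher. Azin1, which shields ornithine decarboxylase from antizyme, was 2.31-fold lower (2.05 to 2.61), at 21.2 and 9.17 FPKM. Antizyme Oaz1 stood at 491 and 612 FPKM and spermidine synthase Srm at 292 and 343 FPKM. Of 7 compared transport genes 0 were past 2-fold, with a median of -0.33. Slc3a2 and Slc7a5, the subunits of the large neutral amino acid exchanger that takes up methionine, stood at 798 and 634 FPKM and at 38.2 and 26.6 FPKM.

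**Figure D4:**
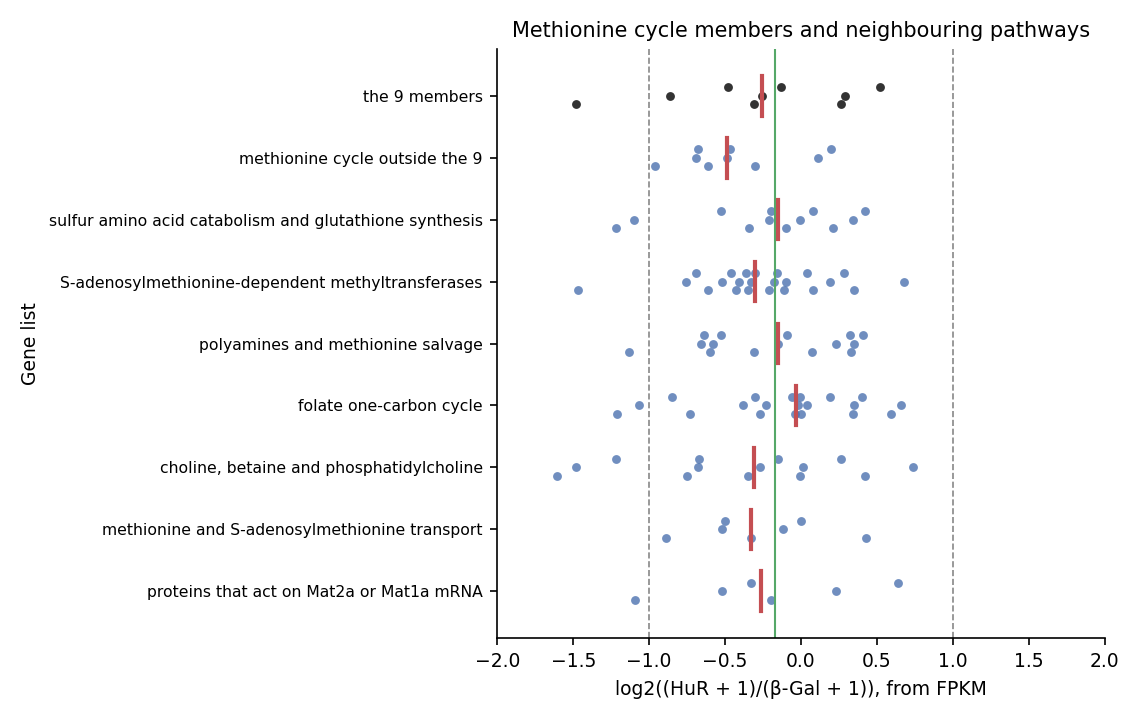
log2((HuR + 1)/(β-Gal + 1)) of the members (black) and of the compared genes of 8 lists (blue), each point 1 gene. Red bars are list medians, drawn without Elavl1, the green line is the median of all compared genes (-0.17) and the dashed lines mark 2-fold. The 3 lowest points of the choline list are Chdh, Slc44a1 and Cept1, and 0 points drawn lie beyond 2-fold on the higher side.

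Proteins known to act on Mat2a or Mat1a mRNA, or on HuR itself, had 1 of 7 compared genes higher, Elavl1, and 1 lower, Hnrnpd. The call of Elavl1 was set by the treatment, as the virus was for HuR, and without it 0 were higher. Background shares were 8.31% lower and 5.35% higher. Hnrnpd encodes AUF1, an RNA-binding protein that in rat liver was reported to bind Mat1a mRNA where HuR binds that of Mat2a. It stood at 58.5 FPKM in β-Gal against 27.0 FPKM in HuR, 2.16-fold lower (1.98 to 2.36). Its log2 fold change was -1.09, but -0.92 less the median of all genes, short of 2-fold. Of the others, named after their values had been seen, Mettl16, the methyltransferase of the Mat2a hairpins shown above, stood at 15.5 and 12.1 FPKM, and the m6A reader Ythdc1 at 14.8 and 23.8 FPKM. Hnrnpd and Mat1a were both lower in the library with Mat2a near its control value. A link between these levels was not tested, and 1 library per group could not show one.

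Of 8 listed markers of fetal or proliferating hepatocytes, in which Mat2a is known to prevail, 7 had a lower FPKM in the HuR library and Afp a higher one. The median of all compared genes was itself below 0, at -0.17, so a lower value was common among genes at large. In 4 of the 8 the level reached 1 FPKM in a library, and the rest stayed below it in both. Of these 4, 1 was at least 2-fold lower (Top2a), 0 were higher and the median log2 fold change was -0.49. Of all compared genes, 8.31% were called lower and 5.35% higher. The summed level of the 8 was 57.1 FPKM in β-Gal against 53.8 FPKM in HuR, with Afp the highest of them in both. Alpha-fetoprotein (Afp) stood at 28.7 and 37.7 FPKM, cyclin D1 (Ccnd1) at 18.7 and 10.1 FPKM, and the replication enzyme Top2a at 3.18 and 0.934 FPKM. Mki67, a marker of cycling cells, was at 0.438 FPKM in β-Gal against 0.112 FPKM in HuR. The part of these states in the ratio of Mat2a to Mat1a was not tested.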

How the data were processed

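RNA sequencing gave 1 library per group, grouped by the overexpression label. The authors deposited 1 table of FPKM per library. Per the submitters' processing notes, TopHat2, HTSeq 0.6.1 and GRCm38 were used, with no role or order stated. The FPKM formula, annotation release, strand setting and filters were not given in the sources used here. Both tables listed the same 20505 genes, with 0 at a value of 0 in β-Gal and 2233 in HuR, so genes at 0 in β-Gal are not analysed here. GENCODE M21 names and lengths matched 20133 genes.

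Library totals were searched as those that turn FPKM times mean transcript length into whole reads, a procedure tested on simulated data. Within 0.02 of a read, 71.2% of matched genes were whole in both libraries. For the members the tolerance was 0.001: 5 were whole with the mean length of all M21 transcripts and 2 with the mean of the older transcripts (Mat1a, Gnmt). For Bhmt and Cbs the smallest length that gave whole reads was used, so their intervals may be too wide. Fold intervals are exact Clopper-Pearson intervals (scipy 1.17.1), and the interval of a ratio of ratios is the exact conditional one. GC content and length trends were removed with LOWESS (statsmodels 0.14.6).

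Named list genes were those past 2-fold (up to 4 per list) and the 2 of highest mean FPKM. The members and lists were chosen with earlier results of these data known. Alternatives were other pseudocounts, filters, scalings, a 1.5-fold threshold and other transcript lengths.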

Additional observations from a re-analysis of the deposited data

How the results depend on the processing

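No paired analysis was possible because each group was 1 library, and for the same reason no replicate could be left out. Cth was the 1 member at least 2-fold lower, and 0 were higher, under pseudocounts of 0.1 and 5, no pseudocount, both filters, the all-gene median set to 0, Elavl1 left out of the totals, and GC content and length trends removed; at 1.5-fold, Mat1a joined it (2 lower, 0 higher). The members' median became -0.09 after the all-gene median was set to 0. The Mat2a to Mat1a fold between libraries was 1.46 with the trends removed. List genes at least 2-fold lower numbered 10, but 3 at a pseudocount of 5 and 6 with the median set to 0, and 1 was higher without a pseudocount and 1 with the trends removed (Ythdc1, at 1.14). Of all compared genes, 691 were higher, but 260 at a pseudocount of 5, 1083 without one and 444 at a filter of 5 FPKM, and 1072 were lower, but 1762 at a pseudocount of 0.1, 1794 without one, 330 at a pseudocount of 5 and 660 with the median set to 0, where higher calls went from 39.2% to 59.3%. The causes were not tested. The settings without a pseudocount and with the length of the longest-coding transcript were chosen after seeing the data. Among the members, depth limits Bhmt and Cth most, at 342 and 422 reads in the HuR library, and named list genes had as few as 65 (Mtr).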
